A study of Mus musculus with 6 samples.

Results

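The genes described here belong to the unfolded protein response (UPR) of the endoplasmic reticulum (ER) and to the integrated stress response (ISR). The group was defined by gene symbol as 10 genes, namely the ER chaperones *Hspa5*, *Hsp90b1* and *Dnajb9*, the ER foldase *Pdia4*, the degradation factor *Herpud1*, the stress sensor *Ern1*, the transcription factors *Xbp1*, *Atf4* and *Ddit3*, and the feedback pseudokinase *Trib3*. Of these 10 genes, 9 had a row of their own among the 19445 loci of the table, and all 9 passed the expression filter that left 11692 loci for testing. *Pdia4* was listed only on a joint row with the microRNA gene *Mir704*, which lies outside the rule and is given apart from the others.

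The data were RNA-Seq of subcutaneous inguinal white fat (iWAT) from 3 *Hlx* transgenic mice and 3 wild-type littermates, all labelled male and 12 weeks old, with no treatment. *Hlx* is a homeobox transcription factor, and the transgene was its full-length cDNA placed behind the *aP2* (*Fabp4*) promoter, which is active in white and brown adipose tissue. The founders were C57BL/6 and SJL hybrids that were backcrossed to C57BL/6, so the control littermates share this mixed background. The values are FPKM, fragment counts divided by transcript length and by library size, so levels can be compared roughly between genes and between mice. This unit does not correct for differences in composition between libraries, whose FPKM summed to 466059 to 542096. Differences are given as log2 fold changes of FPKM + 1, transgenic minus wild type, which understates the change of genes near 1 FPKM.

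Several properties of the libraries bear on every value below. *Hlx* itself was at 110, 79.6 and 99.5 FPKM in transgenic mice 1, 2 and 3 and at 6.88, 7.35 and 8.14 FPKM in wild-type mice 1, 2 and 3, a log2 fold change of 3.51 (SE 0.13; limma, adjusted p = 0.000106), with transgene and endogenous reads counted together. *Xist*, the RNA that coats the silenced X chromosome of females, was at 20.2 to 33.6 FPKM in the 6 libraries, and 28 of 28 loci on the Y chromosome were at 0 in all of them, which goes against the labelled sex in both genotypes alike. Of 9 adipocyte markers with a row, all were present, 0 were called higher and 2 were called lower (*Adipoq* and *Lpl*). Over all loci tested, 11.6% were called higher and 7.03% lower. Relative sequencing depth could be estimated only roughly from steps in low FPKM values, since 12.8% to 15.8% of these lay on a step. Against wild-type mouse 3 the estimates were 0.712, 1.14 and 0.693 in the transgenic libraries and 0.940 and 1.41 in the other wild-type libraries. The absolute depth is unknown. Macrophage markers summed to 692 to 1027 FPKM in transgenic mice against 1231 to 1674 FPKM, with 4 of 11 lower (*Lyz2*, *Cd68*, *Csf1r* and *Adgre1*). In whole tissue, fewer cells of a type and less RNA per cell cannot be told apart.

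As background, proteins that enter the secretory pathway are folded in the ER by chaperones such as BiP, the product of *Hspa5*. When unfolded protein accumulates, the sensors IRE1 (*Ern1*), PERK (*Eif2ak3*) and ATF6 (*Atf6*) start the UPR. IRE1 splices *Xbp1* mRNA, and spliced XBP1 and cleaved ATF6 raise the transcription of chaperones and of the machinery that returns misfolded proteins to the cytosol for degradation. PERK is one of several kinases that phosphorylate the initiation factor eIF2α, the step shared by the ISR, which lowers general translation while favouring translation of *Atf4* mRNA. ATF4 then drives genes of amino acid synthesis and transport, together with *Ddit3* (CHOP) and *Trib3*. In brown and beige adipocytes, mitochondrial stress can also feed into the ISR. Because splicing, cleavage and phosphorylation of these regulators are not read by a gene-level FPKM, the values describe transcript levels and not the activity of the sensors.

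None of the 9 genes tested was called different between genotypes (limma, adjusted p under 0.05 over all loci tested). Over all 11692 loci, 18.6% were called in either direction, 11.6% higher and 7.03% lower in transgenic mice. At an unadjusted p under 0.05 there were 2 of the 9, *Ddit3* and *Xbp1*, beside 36.2% of all loci. The values of the genotypes did not overlap for 1 of the 9, *Ddit3*, beside 42.9% of all loci. The median log2 fold change was 0.04 for the 9 genes and -0.01 for all loci, with 7 positive and 2 negative values. In absolute size the median was 0.15 for the 9 genes and 0.21 for all loci. The background itself depends on single mice. Without transgenic mouse 3, wild-type mouse 2 or wild-type mouse 3, the loci called higher fell from 1352 to 812, 851 and 780. The loci called lower numbered 822 with all mice, and 470, 329, 493, 424 and 400 without transgenic mouse 1, transgenic mouse 3 and wild-type mice 1, 2 and 3.

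**Figure D1:**
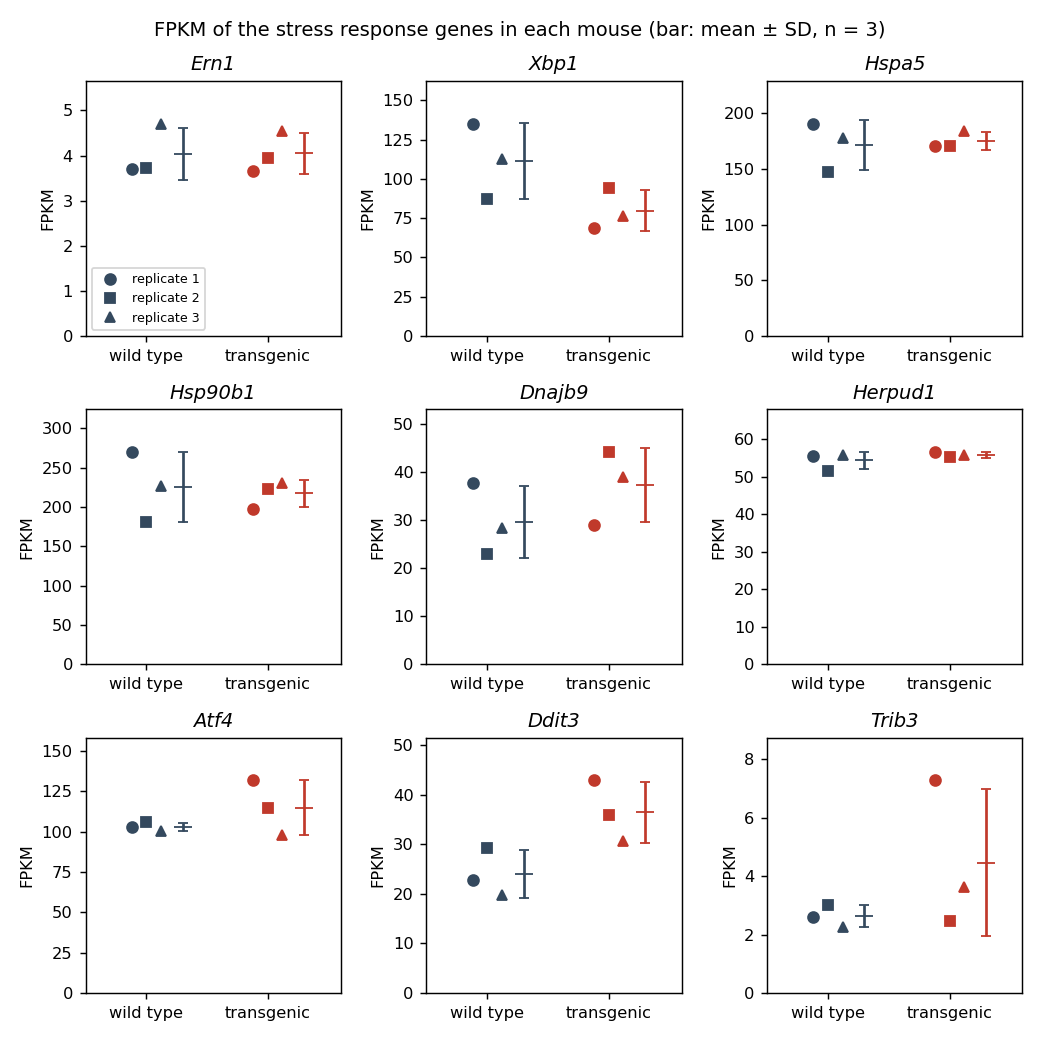
FPKM of the 9 stress response genes in each mouse, with wild-type mice on the left and transgenic mice on the right of each panel. Marker shapes show replicate numbers 1 to 3 and bars show mean ± SD (n = 3). Values of *Ddit3* are 30.6 to 42.9 FPKM in transgenic mice against 19.8 to 29.2 FPKM, and the other 8 panels show overlapping genotypes.

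The levels of these genes spanned more than an order of magnitude in iWAT. *Hsp90b1* and *Hspa5* were the most abundant, at means of 221 and 173 FPKM over the 6 mice, above 97.2% and 96.5% of the loci tested. *Atf4* at 109 FPKM and *Xbp1* at 95.7 FPKM came next, followed by *Herpud1* at 55.1 FPKM. *Dnajb9* and *Ddit3* lay close together at 33.6 and 30.2 FPKM. The lowest were *Ern1* at 4.05 FPKM and *Trib3* at 3.54 FPKM, above 23.5% and 20.7% of loci. Neighbours in this order overlapped over the 6 mice, apart from *Hspa5* and *Atf4*, *Xbp1* and *Herpud1*, *Herpud1* and *Dnajb9*, and *Ddit3* and *Ern1*. The spread within genotypes was lowest for *Herpud1*, with an SD of 0.045 on the log2 scale, and highest for *Trib3*, with an SD of 0.46, beside a median of 0.14 over all loci.

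*Ern1*, which encodes the IRE1 kinase and ribonuclease (mm10 chr11:106394197-106488245), was at 3.66, 3.94 and 4.55 FPKM in transgenic mice and 3.71, 3.72 and 4.71 FPKM in wild-type mice. The same level was thus found in both genotypes, with one mouse of each slightly above the others. Its log2 fold change was 0.0032 (95% CI -0.27 to 0.28; limma, adjusted p = 0.985).

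*Xbp1*, the transcription factor whose mRNA IRE1 splices (chr11:5520966-5525872), was at 68.7, 94.1 and 76.3 FPKM in transgenic mice and 135, 87.0 and 113 FPKM in wild-type mice. Both of the highest values were wild type, and wild-type mouse 2 lay below transgenic mouse 2. The means were 79.7 ± 13.0 and 112 ± 24.2 FPKM (SD, n = 3), a log2 fold change of -0.47 (SE 0.18; 95% CI -0.91 to -0.04), which did not pass the adjustment (limma, adjusted p = 0.115). An exact permutation test gave p = 0.2, where 3 against 3 mice cannot give less than 0.1. Spliced and unspliced *Xbp1* are summed in this value. *Xbp1* is also abundant in plasma cells, and the other 10 B cell and plasma cell markers with a row summed to 107 to 190 FPKM in transgenic mice against 201 to 295 FPKM. Of that marker list, *Xbp1* included, 1 of 10 tested was lower, the B cell gene *Ms4a1*, beside 7.03% of all loci. The part of these cells in the *Xbp1* values was not tested.

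*Hspa5* encodes BiP, the chief ER member of the Hsp70 family and an inhibitor of the sensors at rest (chr2:34772089-34776529). It was at 170, 171 and 184 FPKM in transgenic mice and 191, 147 and 178 FPKM in wild-type mice. The transgenic values lay inside the wild-type range. The means were 175 ± 7.75 and 172 ± 22.6 FPKM (SD, n = 3), with a log2 fold change of 0.04 (95% CI -0.24 to 0.31; limma, adjusted p = 0.848).

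*Hsp90b1*, the ER member of the Hsp90 family (chr10:86690840-86776843), was at 198, 223 and 231 FPKM in transgenic mice and 270, 181 and 226 FPKM in wild-type mice. The spread was again wider among wild-type mice, with the highest and the lowest value both wild type. Its log2 fold change was -0.04 (SE 0.16; 95% CI -0.41 to 0.33; limma, adjusted p = 0.879). The deposited locus is 86004 bases long and also spans *Ttc41* and *Gm49358* on the other strand.

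*Dnajb9* encodes ERdj4, a BiP co-chaperone and a target of spliced XBP1 (chr12:44205896-44210068). It was at 29.0, 44.3 and 39.0 FPKM in transgenic mice and 37.8, 22.9 and 28.4 FPKM in wild-type mice. The 2 highest values were transgenic, while transgenic mouse 1 lay within the wild-type range. The log2 fold change of 0.33 (SE 0.21; 95% CI -0.17 to 0.83) did not pass the test (limma, adjusted p = 0.299).

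*Herpud1*, a membrane component of ER-associated degradation (chr8:94386445-94395625), was at 56.6, 55.1 and 55.7 FPKM in transgenic mice and 55.5, 51.6 and 55.9 FPKM in wild-type mice. It varied least of all 9 genes. The log2 fold change of 0.04 had the narrowest interval of the group, -0.13 to 0.21 (limma, adjusted p = 0.723).

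*Pdia4*, a protein disulfide isomerase of the ER, could be read only on the joint row with *Mir704* (chr6:47796140-47813512). That row was at 36.9, 49.6 and 51.1 FPKM in transgenic mice and 65.5, 47.9 and 61.1 FPKM in wild-type mice. Wild-type mouse 2 fell among the transgenic values. The log2 fold change was -0.34 (SE 0.16; 95% CI -0.73 to 0.05; limma, adjusted p = 0.182).

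*Atf4*, the transcription factor at the centre of the ISR (chr15:80255183-80257541), was at 132, 115 and 97.8 FPKM in transgenic mice and 103, 106 and 101 FPKM in wild-type mice. The transgenic values surrounded a tight wild-type group, with means of 115 ± 17.0 and 103 ± 2.61 FPKM (SD, n = 3). Its log2 fold change was 0.15 (95% CI -0.13 to 0.42; limma, adjusted p = 0.409).

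*Ddit3* encodes CHOP, a transcription factor linked to cell death under prolonged ER stress (chr10:127290550-127311786). It was at 42.9, 36.0 and 30.6 FPKM in transgenic mice and 22.9, 29.2 and 19.8 FPKM in wild-type mice. All transgenic values lay above all wild-type values, by a narrow margin between transgenic mouse 3 and wild-type mouse 2. The means were 36.5 ± 6.14 and 24.0 ± 4.77 FPKM (SD, n = 3), a ratio of 1.52 and a log2 fold change of 0.59 (SE 0.17; 95% CI 0.19 to 0.99). This was just short of the threshold (limma, adjusted p = 0.0522). Without wild-type mouse 2 the log2 fold change was 0.74 and the adjusted p 0.0365 by limma, and without each of the other mice the adjusted p was 0.0601 to 0.147. The exact permutation test gave p = 0.1, the smallest value it can give here. *Ddit3* overlaps *Mars*, the methionyl-tRNA synthetase gene, on the opposite strand, and the library kit does not keep strand. *Mars* was at 26.0 ± 1.66 FPKM in transgenic mice against 22.5 ± 1.07 FPKM (SD, n = 3; log2 fold change 0.20, limma, adjusted p = 0.125).

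*Trib3*, a CHOP and ATF4 target that restrains both (chr2:152337424-152376566), was at 7.28, 2.47 and 3.63 FPKM in transgenic mice and 2.61, 3.00 and 2.26 FPKM in wild-type mice. Only transgenic mouse 1 stood well above the rest, and transgenic mouse 2 was within the wild-type range. The log2 fold change of 0.50 (SE 0.30; 95% CI -0.20 to 1.2; limma, adjusted p = 0.268) became 0.15 without transgenic mouse 1. That library was also the highest for *Atf4* and *Ddit3*. The deposited locus of *Trib3* is 39143 bases long and also spans the protein-coding *Nrsn2* on the same strand, outside the *Trib3* gene body.

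**Figure D2:**
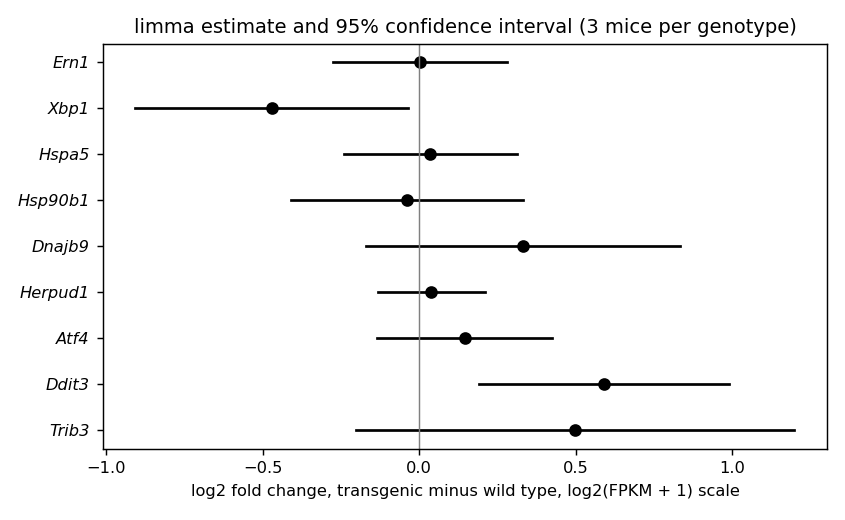
Log2 fold change (transgenic minus wild type) of the 9 genes, with points for the limma estimate and lines for the 95% confidence interval. The intervals of *Xbp1*, -0.91 to -0.04, and *Ddit3*, 0.19 to 0.99, lie on opposite sides of 0, and the other 7 include 0.

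Set against each other within a mouse, the 9 genes form 36 pairs, and the ratio of FPKM did not overlap between genotypes for 7 of them, beside 43.3% of all pairs of loci above 0 in every mouse. This is a description made after the values were seen, and it was not tested. *Xbp1* was in 5 of the 7, out of its 8 pairs, while over all loci 32.9% of ratios with *Xbp1* did not overlap. The ratio of *Xbp1* to *Dnajb9* was 2.37, 2.13 and 1.96 in transgenic mice and 3.58, 3.79 and 3.98 in wild-type mice, a separation that neither gene shows by itself. The ratio of *Xbp1* to *Ddit3* was 1.6, 2.62 and 2.49 in transgenic mice and 5.91, 2.98 and 5.69 in wild-type mice. Wild-type mouse 2 lay nearest to the transgenic mice. For *Hspa5* to *Xbp1* the ratio was 2.48, 1.82 and 2.41 against 1.41, 1.69 and 1.57. *Atf4* to *Ddit3* was steady within transgenic mice at 3.07, 3.20 and 3.19 and higher in wild-type mice at 4.49, 3.62 and 5.06. Relative to *Hspa5*, *Hsp90b1*, *Dnajb9*, *Atf4* and *Ddit3*, *Xbp1* was lower in each transgenic mouse than in any wild-type mouse, although the level of *Xbp1* itself overlapped between genotypes. For *Xbp1* to *Atf4* the margin was narrow, with ratios up to 0.818 in transgenic mice and from 0.823 in wild-type mice. The last pair of the 7 was *Hsp90b1* with *Dnajb9*.

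The promoters of 3 of the 10 genes held a match to a known UPR or ISR element within the 250 bases before the transcription start. The windows were taken from RefSeq (GRCm38.p6, the assembly of mm10), where all 10 genes had one. The motifs searched on both strands were the ER stress response element ERSE (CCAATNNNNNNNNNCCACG), bound by ATF6 with NF-Y and found in 0.113% of 32851 promoter windows; ERSE-II (ATTGGNCCACG), in 0.0304%; the core of the XBP1 element UPRE (TGACGTG), in 1.65%; and the C/EBP-ATF response element CARE (TGATGNAA), in 3.45%. The sequences are shown because such elements are known to link the sensors to ER chaperone genes. Capitals mark the matches, and each sequence is written 5′ to 3′ on the strand of its gene. For *Hspa5* (plus strand), a UPRE core 157 to 151 bases before the start and an ERSE 65 to 47 bases before it were found. The stretches of 29 bases shown, which include flanking bases, are chr2:34771922-34771950 for the UPRE core and chr2:34772020-34772048 for the ERSE.
Hspa5 UPRE core: gggcgtagcaaTGACGTGagttgcggagg
Hspa5 ERSE: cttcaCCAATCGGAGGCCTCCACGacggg
For *Hsp90b1* (minus strand, chr10:86705513-86705676), an ERSE 212 to 194 bases before the start and a second on the opposite strand, 107 to 89 bases before it, were found.
Hsp90b1: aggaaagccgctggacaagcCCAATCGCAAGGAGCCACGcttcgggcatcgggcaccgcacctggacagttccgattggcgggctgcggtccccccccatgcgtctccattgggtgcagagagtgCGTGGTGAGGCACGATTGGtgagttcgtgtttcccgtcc
For *Herpud1* (plus strand, chr8:94386297-94386407), a CARE on the opposite strand, 112 to 105 bases before the start, and an ERSE-II, 52 to 42 bases before it, were found.
Herpud1: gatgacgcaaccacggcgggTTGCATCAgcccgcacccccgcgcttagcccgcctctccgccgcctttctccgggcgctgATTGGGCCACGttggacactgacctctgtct

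The 3 genes with these elements, *Hspa5*, *Hsp90b1* and *Herpud1*, had log2 fold changes of 0.04, -0.04 and 0.04. For the other 7 genes, these letters are not in the window. The *Herpud1* window ends with all but the last letter of an ERSE. Bases after the start were not searched, so *Herpud1* was not counted among the loci with an ERSE. Among all 14 tested loci with an ERSE in the window, 2 were higher in transgenic mice, *Acacb* and *Adcy3*, and none of the other 12 was called, the median being -0.04 (limma; chosen after the members were seen). Neither of the 2 is a chaperone gene. Of 205 tested loci with a CARE, 20 were higher and 18 lower, with a median of -0.07. The counts for both motifs are to be read beside the 18.6% of all loci called, 11.6% higher and 7.03% lower.

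The rest of the pathway was read from 8 lists of 201 genes in all, of which 192 had a row and 186 were tested. Of these 186, 16 were called higher and 10 lower in transgenic mice, or 14.0%, beside 18.6% of all loci. Their median log2 fold change was 0.01. Of the 16 called higher, 9 belonged to the mitochondrial list. The count of genes called lower rested on single mice, with 3 left without transgenic mouse 3, 3 without wild-type mouse 1, 4 without wild-type mouse 2 and 5 without wild-type mouse 3. The lists were chosen with earlier results known, and their counts are a description. Each count of called genes in the lists below is to be read beside the 11.6% of all loci called higher and 7.03% called lower.

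**Figure D3:**
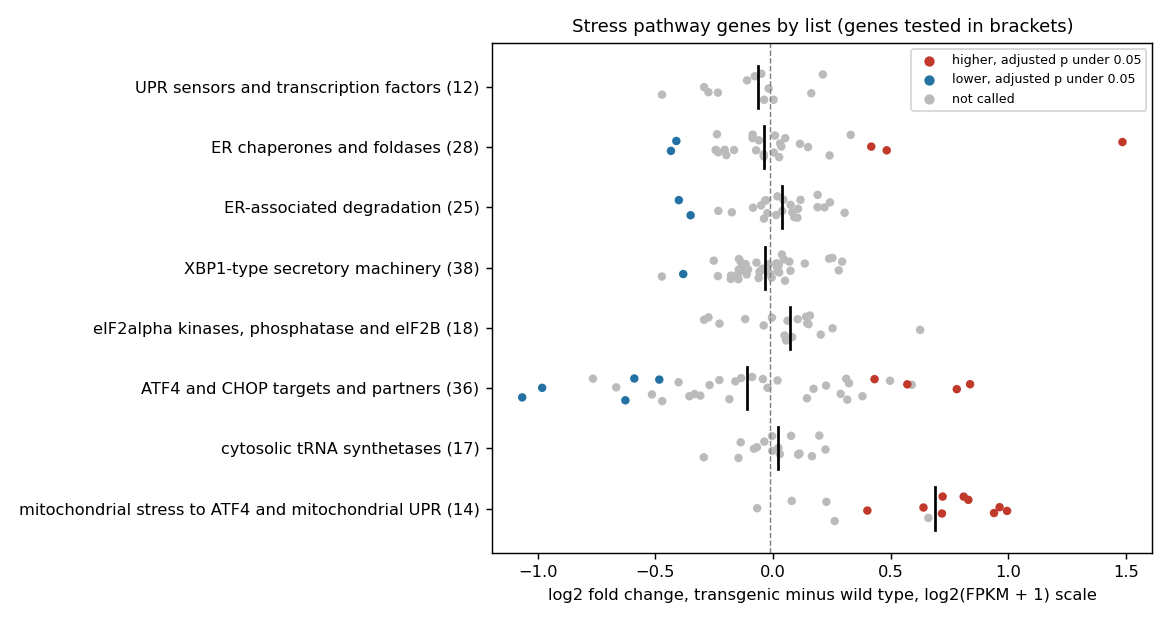
Log2 fold change (transgenic minus wild type) of each tested gene in 8 pathway lists, with 1 point per gene, coloured by call, and a vertical bar at each list's median; the dashed line is the median of all loci, -0.01. Most lists centre near 0, with medians of -0.11 to 0.07, and the mitochondrial list stands at 0.69.

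Among sensors and transcription factors of the UPR, 0 of 12 tested genes were called (limma; 5 had an unadjusted p under 0.05), with a median of -0.06. The genotypes did not overlap for 5 of the 12, beside 42.9% of all loci, with *Eif2ak3*, *Atf6b*, *Mbtps1* and *Creb3l2* lower and *Atf6* higher in transgenic mice. *Eif2ak3*, the PERK kinase, was at 5.93 ± 0.365 FPKM in transgenic mice against 7.51 ± 0.877 FPKM (SD, n = 3; log2 fold change -0.29, limma, adjusted p = 0.0859). *Atf6* was at 12.0 ± 0.602 and 10.2 ± 0.648 FPKM (0.21, limma, adjusted p = 0.107). In the list of eIF2α kinases, their counteracting phosphatases and the exchange factor eIF2B, 0 of 18 were called (2 with an unadjusted p under 0.05), with a median of 0.07. *Ppp1r15a*, the stress-inducible phosphatase subunit GADD34, had a log2 fold change of 0.08 (limma, adjusted p = 0.533).

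Among 28 ER chaperones and foldases tested, 3 were higher and 2 lower, with a median of -0.04. *Cdnf*, an ER-resident neurotrophic factor related to *Manf*, was at 9.80, 6.31 and 9.86 FPKM in transgenic mice and 1.89, 2.76 and 2.59 FPKM in wild-type mice, a log2 fold change of 1.49 (SE 0.18; limma, adjusted p = 0.00292). *Dnajb2*, a J-domain co-chaperone, rose by 0.48 (limma, adjusted p = 0.0188), and *Ero1l*, the oxidase that recharges disulfide isomerases, by 0.42 (limma, adjusted p = 0.0407). *Erp29* fell by 0.43 (limma, adjusted p = 0.0241) and *P4hb*, the main protein disulfide isomerase and a subunit of collagen prolyl hydroxylase, by 0.41 (limma, adjusted p = 0.0192). Among chaperones best known as UPR targets, *Hyou1* had a log2 fold change of 0.24 (limma, adjusted p = 0.0608), *Manf* of 0.11 (0.548), *Creld2* of -0.09 (0.726), *Calr* of -0.20 (0.440) and *Sdf2l1* of -0.24 (0.35). *Cdnf* was called in all 14 alternative fits. The calls of *Erp29* and *P4hb* were lost without transgenic mouse 1 or 3 or any single wild-type mouse, with adjusted p up to 0.0858 and 0.0638. That of *Dnajb2* was lost without transgenic mouse 3, wild-type mouse 2 or wild-type mouse 3, with adjusted p up to 0.0676. The *Ero1l* call was lost whichever mouse other than transgenic mouse 2 was left out and in 2 other fits, with adjusted p up to 0.124.

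Of 25 ER-associated degradation genes, 0 were higher and 2 were lower, with a median of 0.04. *Os9*, the lectin that delivers misfolded glycoproteins, fell by 0.40 (limma, adjusted p = 0.0174), and *Derl1*, a component of the retrotranslocation complex, fell by 0.35 (limma, adjusted p = 0.0340). *Edem1* and *Sel1l*, typical XBP1 and ATF6 targets of this list, had log2 fold changes of 0.08 and 0.10 (limma, adjusted p = 0.489 and 0.449). The *Os9* call was lost without transgenic mouse 3 or wild-type mouse 1 (adjusted p up to 0.0699), and the *Derl1* call whichever mouse other than transgenic mouse 1 was left out (adjusted p up to 0.114).

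In the XBP1-type secretory machinery, which covers translocation, glycosylation and vesicle transport, 0 of 38 genes were higher and 1 was lower, with a median of -0.04. *Rpn2*, a subunit of the oligosaccharyltransferase, fell by 0.38 (limma, adjusted p = 0.0235), and its call was lost whichever mouse other than transgenic mouse 2 was left out (adjusted p up to 0.0855). Beside the lower mean of *Xbp1*, the median gene of this list was thus close to that of all loci.

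ATF4 and CHOP targets and partners moved in both directions. Of 36 tested, 4 were higher and 5 lower, or 25.0%, beside 18.6% of all loci, with a median of -0.11. The genes that rose were *Tnfrsf10b*, the death receptor DR5 (log2 fold change 0.84; limma, adjusted p = 0.00787), the transcription factors *Atf3* (0.78; adjusted p = 0.0308) and *Cebpb* (0.57; adjusted p = 0.00451), and the protease *Casp12* (0.43; adjusted p = 0.0265). *Tnfrsf10b*, a CHOP target, was at 5.32, 6.04 and 7.93 FPKM in transgenic mice and 2.99, 3.13 and 3.22 FPKM in wild-type mice. The highest wild-type value was well below the lowest transgenic one. Of the genes that fell, *Psat1*, of serine synthesis, was at 17.6, 22.5 and 22.5 FPKM in transgenic mice and 49.3, 42.8 and 41.8 FPKM in wild-type mice (log2 fold change -1.07; limma, adjusted p = 0.00215). *Slc3a2*, the heavy chain of amino acid transporters, was at 31.8, 42.0 and 31.9 FPKM against 74.5, 76.8 and 59.7 FPKM (-0.98; limma, adjusted p = 0.00568). *Sesn2*, an inhibitor of mTORC1, fell by 0.63 (limma, adjusted p = 0.0133). Completing the 5 outside the naming rule, the alanine transaminase *Gpt2* fell by 0.59 and the serine synthesis enzyme *Phgdh* by 0.48 (limma, adjusted p = 0.0293 and 0.0252). Other tested genes of amino acid metabolism and transport in the list were not called and lay on both sides of 0. *Cbs*, *Mthfd2*, *Aldh18a1*, *Cth* and *Slc7a1* had log2 fold changes of -0.76, -0.35, -0.23, -0.18 and -0.16 (limma, adjusted p = 0.130 to 0.463). *Slc7a11*, under the filter and not tested, was at 0.283 to 0.387 FPKM in transgenic mice against 0.479 to 0.799 FPKM. *Pycr1* had a log2 fold change of 0.38 and *Psph* of 0.32, both without overlap but not called (limma, adjusted p = 0.0882 and 0.110), and *Shmt2*, *Slc38a2* and *Slc7a5* were at 0.020, -0.023 and -0.043. The genes named here beyond those called were chosen after their values were seen.

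Other classical ATF4 targets were not called. *Asns*, the asparagine synthetase, had a log2 fold change of -0.27 (limma, adjusted p = 0.189) and *Chac1*, of glutathione degradation, of -0.09 (adjusted p = 0.850). *Ddit4*, added after its value was seen, was just short of the threshold in the direction opposite to *Ddit3* (-0.67; limma, adjusted p = 0.0537). The stress-induced hormones *Fgf21*, at 0.203 to 0.568 FPKM, and *Gdf15*, at 0.299 to 0.618 FPKM, lay under the filter and were not tested. *Tnfrsf10b*, *Cebpb*, *Psat1* and *Slc3a2* were called in all 14 alternative fits. The *Sesn2* call was lost without transgenic mouse 3 (adjusted p = 0.0513). That of *Casp12* was lost without transgenic mouse 1, transgenic mouse 3, wild-type mouse 2 or wild-type mouse 3 (adjusted p up to 0.0852), and that of *Atf3* whichever mouse other than transgenic mouse 3 was left out and without the filter (adjusted p up to 0.0996). Cytosolic tRNA synthetases, a further set of ATF4 targets, gave 0 calls among 17 tested (3 with an unadjusted p under 0.05), with a median of 0.02.

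Mitochondrial proteases and chaperones, the genes of the mitochondrial UPR and of its relay to ATF4, were the list that stood apart. Of 14 tested, 9 were higher and 0 lower, or 64.3%, beside 18.6% of all loci, and the median was 0.69. *Afg3l2* and *Spg7*, subunits of the inner membrane protease that faces the matrix, rose by 1.00 and 0.96 (limma, adjusted p = 0.00204 and 0.00175), and *Dnaja3*, a co-chaperone of mitochondrial Hsp70, rose by 0.94 (limma, adjusted p = 0.00384). *Hspa9*, the mitochondrial Hsp70, was at 455 ± 70.3 FPKM in transgenic mice against 258 ± 31.7 FPKM (SD, n = 3), above the level of its ER counterpart *Hspa5* in both. *Oma1*, the protease that starts the relay to ATF4, had a log2 fold change of -0.07 (limma, adjusted p = 0.634). *Hspa9* and *Oma1* were chosen for mention after their values were seen. The calls of *Afg3l2*, *Spg7* and *Dnaja3* were made in all 14 alternative fits. Most of these proteins are also housekeeping components that mitochondria use without stress. The authors report denser mitochondria, more mitochondrial DNA and many raised genes of mitochondrial oxidation in iWAT of the transgenic mice. How far this list goes beyond that general rise was not tested.

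The cytosolic heat shock response and the immediate early genes served as neighbouring programmes. Of 16 heat shock genes, 2 were higher and 0 lower, with a median of 0.10. *Hspa4l* rose by 0.74 (limma, adjusted p = 0.00171), a call made in all 14 alternative fits, and *Cacybp* by 0.34 (limma, adjusted p = 0.0319), a call lost whichever mouse other than wild-type mouse 1 was left out and in 2 other fits (adjusted p up to 0.104). Of 16 immediate early genes, 4 were higher and 1 lower, with a median of 0.13. *Nr4a2* rose by 0.93 (limma, adjusted p = 0.0198) and *Jun* by 0.54 (limma, adjusted p = 0.0202), while *Zfp36* fell by 0.43 (limma, adjusted p = 0.0202). The call of *Nr4a2* was lost without transgenic mouse 1, wild-type mouse 1 or wild-type mouse 3, and those of *Jun* and *Zfp36* without transgenic mouse 3, wild-type mouse 2 or wild-type mouse 3, with *Zfp36* also lost in 1 other fit (adjusted p up to 0.0731). *Atf3*, named above, is also an immediate early gene, and *Egr2* (log2 fold change 0.48; limma, adjusted p = 0.0192) completes the 4 outside the naming rule.

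ER chaperones varied between mice of the same genotype in a shared order. Among the 28 chaperones and foldases, 17 (60.7%) had the order wild-type mouse 1 over 3 over 2, beside 17.4% of all loci. In 16 (57.1%), both wild-type mouse 2 and transgenic mouse 1 were the lowest of their genotype, beside 13.5% of all loci. This order was noticed after the values were seen, the genes share their libraries, and no test was made. *Hspa5*, *Hsp90b1*, *Dnajb9* and *Xbp1* each had the wild-type order. The median deviation of the list from the mean of each gene was -0.14, 0.03 and 0.02 in transgenic mice 1 to 3 and 0.15, -0.15 and 0.0029 in wild-type mice 1 to 3, on the log2 scale. Over all loci, this deviation stayed between -0.0081 and 0.011. The log2 fold change between genotypes was -0.04 for the median chaperone. It compares means of 3 mice, so it cannot be ranked against a range of single mice.

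**Figure D4:**
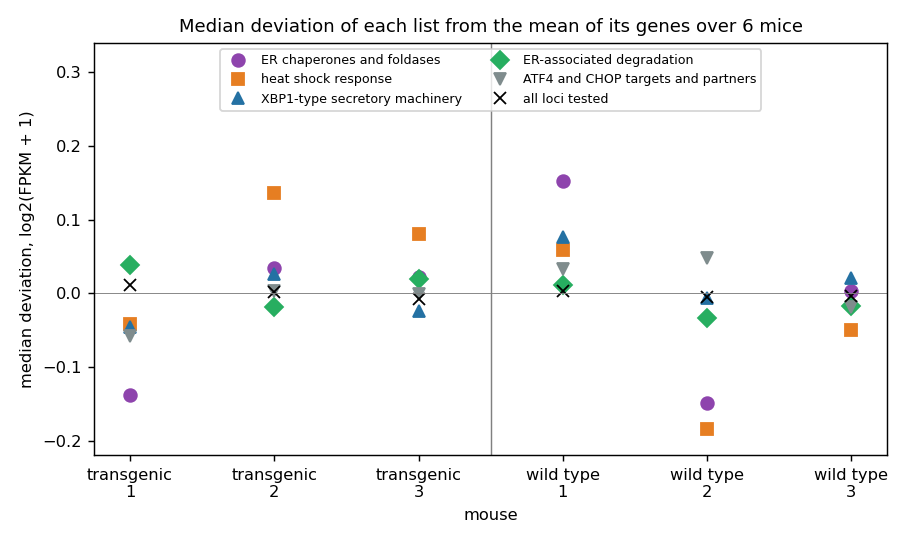
Median deviation of the genes of a list, per mouse, from each gene's mean over the 6 mice, in log2(FPKM + 1) units. ER chaperones and foldases lie at -0.14 in transgenic mouse 1 and -0.15 in wild-type mouse 2, against 0.15 in wild-type mouse 1, while all loci stay between -0.0081 and 0.011.

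Heat shock genes shared this order, with 9 of 16 (56.2%) lowest in the same mice, and the secretory machinery less so, with 12 of 38 (31.6%). ER-associated degradation with 1 of 25 (4.0%) and ATF4 and CHOP targets with 5 of 36 (13.9%) were near or under the share of all loci. Summed markers of 4 lists, those of fibroblasts, macrophages, endothelial cells, and B cells and plasma cells (with *Xbp1* itself), were also lowest in transgenic mouse 1 and in wild-type mouse 2. Macrophage markers summed to 692, 1027 and 730 FPKM in transgenic mice and 1411, 1231 and 1674 FPKM in wild-type mice. B cell and plasma cell markers summed to 175, 284 and 215 FPKM and to 337, 289 and 408 FPKM. Without *Xbp1*, this last list summed to 106.6, 189.7 and 138.5 FPKM in transgenic and 201.3, 201.6 and 295.0 FPKM in wild-type mice. Wild-type mouse 2 was then no longer the lowest. Fibroblast markers had the full chaperone order of the wild-type mice, at sums of 1608, 2273 and 1990 FPKM in transgenic and 2883, 2346 and 2566 FPKM in wild-type mice, of which *Col1a1* was at 90.8, 193 and 164 FPKM against 234, 131 and 150 FPKM. Within that list, 1 of 10 was lower in transgenic mice, *Dpt*, beside 7.03% of all loci. The part of these cells in the chaperone values was not tested.

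The share of markers called in the other lists is to be read beside the 18.6% of all loci. Epithelial markers summed to 165, 240 and 359 FPKM in transgenic and 405, 356 and 274 FPKM in wild-type mice, with *Wap* at 0 in all and 0 of 13 tested called (2 with an unadjusted p under 0.05). T and NK cell markers summed to 198 to 320 and 276 to 344 FPKM, with 0 of 10 called (2 with an unadjusted p under 0.05). Endothelial markers summed to 208 to 229 and 205 to 219 FPKM, with 2 of 10 higher (*Kdr* and *Emcn*) and 1 lower (*Cldn5*). Skeletal muscle markers, at 179 to 838 and 51.0 to 212 FPKM, had 1 of 10 higher (*Myl1*) and were highest in transgenic mouse 2. Neuronal and Schwann cell markers, at 92.4 to 131 and 27.7 to 38.0 FPKM, did not overlap between genotypes and had 2 of 5 tested higher (*Mbp* and *S100b*), or 40.0%, with *Th* at 0 in all libraries.

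Among the loci most like *Hspa5* over the 6 mice, by the root mean square difference of centred log2 values, were *Naf1* (0.027) and *Olfr558* (0.041), both at low FPKM. For *Ddit3* the closest were *Trappc4* (0.067), *Lss* (0.067) and *Slc2a4* (0.071). *Trappc4*, a vesicle tethering factor, was at 79.1, 58.5 and 57.3 FPKM in transgenic mice and 42.4, 51.7 and 36.5 FPKM in wild-type mice. *Lss*, the lanosterol synthase, was called higher (log2 fold change 0.59; limma, adjusted p = 0.0247). *Slc2a4*, the insulin-responsive glucose transporter, had a log2 fold change of 0.55 (limma, adjusted p = 0.0736). The likeness was measured over 6 libraries only, and these were among the closest of 11692 loci.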

How the data were processed

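RNA-Seq libraries of iWAT, 3 of *Hlx* transgenic and 3 of wild-type mice, were used. RNA was extracted with Trizol, and TruSeq v2 libraries were sequenced from 1 end over 100 bases. The authors aligned them to mm10 and deposited FPKM per gene and mouse. The submitters' processing notes name CASAVA 1.8.2, TopHat2 2.0.9, Bowtie2 2.1.0 and Cufflinks 2.2.1, and the annotation is not given in the sources used here. The library kit does not keep strand. Cufflinks divides reads between overlapping genes, so values of overlapping loci are estimates. The labels number the mice but do not tie them to litters, and the p-values measure the spread between these samples.

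The deposited FPKM were transformed as log2(FPKM + 1). A locus was kept where either genotype had a mean above 1 FPKM, which left 11692 of 19445. Each locus was fitted by limma (version 3.58.1, R 4.3.3) with lmFit and a trended eBayes, two-sided and without covariates, with Benjamini-Hochberg adjustment over all loci tested. A locus was called at an adjusted p under 0.05. Single genes were also tested with an exact two-sided permutation test over 20 arrangements. A symbol on several rows (409 symbols) was taken from the row with the highest mean FPKM, and 433 rows with several symbols were kept as listed. For 5 list genes, the row was found through an older symbol. Reads were not used, and no count test was run. Low values lay on whole-read steps in too small a share (12.8% to 15.8%) to recover reads.

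The genes, the lists and the tests were chosen with earlier results of these data known. Genes were named by a rule: the 10 members, *Hlx*, *Xist*, up to 3 called genes with the largest and up to 3 with the lowest log2 fold change in each list, 16 fixed pathway genes, and the 3 loci closest to *Hspa5* and to *Ddit3*. Exceptions are named in the text. One locus named by the rule is not reported here. Alternatives were another pseudocount (0.1), other filters, scaling by quantiles or by median ratios, sample quality weights, eBayes with no trend, a block for the replicate number, leaving out each mouse, and stricter calls.

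On simulated data for this comparison with 11692 genes, the test recovered 85% of the 100 genes with a 2-fold change and 92% of the 100 with a 3-fold change, and 3.80% of 184 calls were unchanged genes. Changes were simulated only in genes at mean levels above those of *Ern1* and *Trib3*. No other genes were changed, a far smaller share than the 18.6% of loci called in the data. Noise was drawn independently for each gene, so variation that genes share within a mouse was not simulated. The rates need not hold for the data. No member reached a 2-fold ratio (largest 1.70, *Trib3*), and smaller changes were not simulated. Promoter windows and gene overlaps were read from RefSeq and GENCODE annotation of the same assembly. Figures were drawn with matplotlib 3.10.9 in Python 3.11.15.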

Additional observations from a re-analysis of the deposited data

How the results depend on the processing

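Over the 14 alternative fits, *Xbp1* stayed negative (-0.64 to -0.32, never called), and *Ddit3*, *Trib3*, *Dnajb9* and *Atf4* stayed positive. The genes called higher numbered 0 of 9, and 1 with the replicate block (*Ddit3*, adjusted p = 0.0457 by limma) and 0 to 1 with a mouse left out. The block moved the loci called higher to 1230. Same-numbered mice correlated at 0.013, 0.034 and 0.070 across loci, and other pairs at -0.19 to 0.13, so the numbers are not taken to pair the mice.

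Estimates near 0 changed sign. *Hspa5* was at -0.22 under quantile normalization and -0.072 to 0.12 with a mouse left out, *Hsp90b1* at 0.077 with sample quality weights and -0.19 to 0.10, *Ern1* at -0.067 to 0.10, and *Herpud1* at -0.047 under quantile normalization. *Hsp90b1* kept its sign under quantile normalization but moved furthest there, to -0.36 (limma, adjusted p = 0.119). The cause was not tested. The scalings moved the median of all loci to at most -0.03.

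With a mouse left out, pathway genes called higher numbered 11 to 15 and lower 3 to 8 (main counts 16 and 10), and loci 780 to 1295 higher and 329 to 906 lower. Quantile normalization gave 16 pathway genes lower. At an adjusted p under 0.01, 8 and 2 pathway genes and 569 and 199 loci were called. With a 2-fold ratio these were 4 and 1, and 413 and 204. Fits without a mouse use fewer samples, and the last 2 rules are stricter by construction. For quantile normalization and for the 906 loci lower without transgenic mouse 2, above the 822 with all mice, the cause was not tested. The absolute depth is unknown, so its limit on low genes cannot be given, and 3 mice per genotype limit every estimate.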
